A study of Mus musculus with 32 samples.

Results

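Cholesterol synthesis was followed through 8 genes, Hmgcs1, Sqle, Insig1, Idi1, Fdft1, Fdps, Cyp51 and Dhcr7, taken from the array table by gene symbol. The symbols of 6 of them were among the 18138 in the table, with 10 of its 25697 probes, and Hmgcs1 and Fdft1 were not analysed here. A probe was tested when its detection p-value, which compares its signal with negative control beads, was below 0.01 on at least 24 of the 32 arrays. This held for 8 probes of 5 genes, among 10187 probes of 7926 genes over the whole table. The probes left out were the Idi1 probe and 1 of the 4 Insig1 probes.

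The arrays, Illumina MouseRef-8 v2.0 BeadChips, held frontal cortex (FCtx) RNA from 32 female mice of a C57BL/6J x FVB/NJ F1 hybrid background, each on an array of its own, so replicates are separate mice. In the ethanol-treated group, 20 mice chose between 20% ethanol and water for 3 h of each dark phase over 20 days and were killed 20 h after the last session. The other 12 mice were matched controls, and what they were given to drink is not given in the sources used here. By the Methods, every RNA extraction batch mixed the groups. The Methods describe reciprocal crosses, and the labels do not say which mouse came from which. Chips 1 and 2 held 8 ethanol-treated mice each, chip 4 held 8 controls, and chip 3 held 4 mice of each group, so most of the comparison between groups is also a comparison between chips.

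Cells build cholesterol from acetyl-CoA through mevalonate and isoprenoid units to squalene, which is oxidized, closed into a ring and trimmed. When sterols in the endoplasmic reticulum run low, the transcription factor SREBP-2, encoded by Srebf2, is released from its INSIG anchor and switches on nearly the whole pathway together. Brain cholesterol is made locally, since the blood-brain barrier keeps lipoproteins out, and in adults astrocytes and myelinating oligodendrocytes account for much of it. Insig1 encodes the anchor and is itself an SREBP target. Hmgcs1 makes HMG-CoA, Idi1 interconverts the isoprenoid units, Fdps joins them into farnesyl pyrophosphate, Fdft1 makes squalene, Sqle oxidizes it, Cyp51 demethylates lanosterol, and Dhcr7 performs a last reduction to cholesterol.

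Because these genes are known to share promoter elements, the stretches that carry them are shown for the tested genes with a promoter in the RefSeq table for GRCm38.p6, which were Insig1, Cyp51 and Dhcr7. The table also held Hmgcs1 and Idi1, but no entry was matched for Sqle, Fdps or Fdft1. The 250 bases before each start were searched on both strands for CCAAT, the box bound by NF-Y, for TCACNCCAC, a sterol regulatory element, and for CACGTG, an E-box. In the 30-base windows below, all upstream of the start and written 5′ to 3′ on the strand of the gene, capitals mark the match, and none of the printed matches overlap.
Insig1 CCAAT on the opposite strand, chr5:28071184-28071213, plus strand: cgccctcctcccATTGGctccggcggcctc
Insig1 E-box, chr5:28071299-28071328, plus strand: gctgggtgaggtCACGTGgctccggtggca
Cyp51 CCAAT, chr5:4104709-4104738, minus strand: cgctgtccgccaCCAATctggtcctgagat
Dhcr7 CCAAT, chr7:143830117-143830146, plus strand: tcactgccttcaCCAATcacaggacgcagc
Dhcr7 E-box, chr7:143823223-143823252, plus strand: cgctgtgatgaaCACGTGgcaaaaagcagc

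The letters CCAAT were found for all 5 genes with a promoter in the table, against 37.5% of the 27025 genes searched. The E-box was found for 2 of the 5 genes, Insig1 and Dhcr7, against 6.86%. The 2 Dhcr7 matches shown lie before different starts of the gene, and a gene with several starts had more bases searched. A further Dhcr7 CCAAT match, on the opposite strand before the same start as the CCAAT shown, was not printed. The sterol regulatory element was found for 1 of the 5, Hmgcs1, against 1.22% of all genes. These are matches of letters in a window, and no binding was measured here.

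Across all arrays, the messages of Insig1 and Sqle were higher in the ethanol-treated mice on some of their probes, and no probe of the pathway members was called lower. Differences are given on the log2 scale of the normalized values, as ethanol-treated minus control, and a probe was called at a false discovery rate (FDR) below 1% over all probes tested. By this rule 1 of 8 member probes was called, an Insig1 probe, beside 8.16% of all probes. At an FDR below 10%, 3 of 8 were called, all higher, beside 25.2% of all probes (11.7% higher). The median difference of the 8 probes was 0.07, beside -0.0025 over all probes, and 6 of 8 lay above 0, as did 48.4% of all probes.

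Insig1, the sterol-sensing anchor, had 3 tested probes. On ILMN_1245272 the ethanol-treated mice ran from 8.40 through a median of 8.59 to 8.79 log2 units, and the controls from 8.25 through 8.39 to 8.72. The whole ethanol-treated group, 20 of 20, exceeded the control median, and 4 mice exceeded every control, while the groups still overlapped. The difference of 0.19 (SE 0.04, 1.14-fold) had an adjusted p of 0.0018 by limma. On ILMN_2606693 the ethanol-treated mice ran from 8.31 through 8.50 to 8.70 and the controls from 8.08 through 8.33 to 8.53, a difference of 0.15 (SE 0.04, adjusted p = 0.011). Here 19 of 20 exceeded the control median, and only 9 of the 12 controls had a detected signal. The brightest Insig1 probe, ILMN_2895388, detected in all mice, ran from 8.70 through 8.90 to 9.11 with ethanol and from 8.66 through 8.81 to 9.13 in controls, and its difference of 0.06 (SE 0.04, adjusted p = 0.39) did not pass. The call of ILMN_1245272 was lost with median scaling of the arrays (adjusted p = 0.036), and without the controls of chip 4 its difference was 0.06 (adjusted p = 0.62). The file places ILMN_1245272 and ILMN_2606693 at bases 651 and 686 of their target transcript and the brightest at base 2239, and gives the first pair no genome position. The fourth Insig1 probe, ILMN_2620965, was detected on 0 arrays.

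Sqle, the squalene oxidase, had 2 probes. On ILMN_2600348 the ethanol-treated mice ran from 8.75 through 9.05 to 9.30 and the controls from 8.56 through 8.85 to 9.26. The control median was exceeded by 18 of 20, and the difference was 0.19 (SE 0.06, adjusted p = 0.022). On the brighter probe, ILMN_2737163, the ranges were 10.09 to 10.64 (median 10.42) with ethanol and 9.95 to 10.73 (median 10.34) in controls. The controls were the more widely spread on both Sqle probes and held both the lowest and the highest mouse of ILMN_2737163, where the difference was 0.05 (SE 0.06, adjusted p = 0.57).

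Cyp51, the lanosterol demethylase, ran from 9.01 through 9.22 to 9.37 in ethanol-treated mice and from 8.79 through 9.13 to 9.28 in controls. The difference of 0.09 (SE 0.04, adjusted p = 0.16) did not pass, although 14 of 20 mice that drank exceeded the control median. Fdps, the farnesyl pyrophosphate synthase, lay the other way, from 10.59 through 10.88 to 11.14 with ethanol and from 10.79 through 10.93 to 11.10 in controls. Its difference was -0.08 (SE 0.04, adjusted p = 0.16), with 5 of 20 above the control median. Dhcr7, the last reductase, gave -0.04 (SE 0.02, adjusted p = 0.20), with values from 8.29 through 8.37 to 8.48 and from 8.31 through 8.41 to 8.54. The groups overlapped for all 3 of these genes. The Idi1 probe was detected in 3 ethanol-treated mice and 1 control, so no level was compared.

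The levels of Insig1, Sqle and Cyp51 went with the chip as well as with treatment. For Insig1 ILMN_1245272 the mean was 8.59 ± 0.07 (SD, n = 8) on chip 1 and 8.68 ± 0.10 (n = 8) on chip 2, both ethanol, and 8.35 ± 0.07 (n = 8) in the controls of chip 4. On chip 3 it was 8.50 ± 0.09 (n = 4) with ethanol and 8.55 ± 0.13 (n = 4) in controls. The controls of chip 3 were thus nearer to the ethanol-treated mice than to the other controls.

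**Figure D1:**
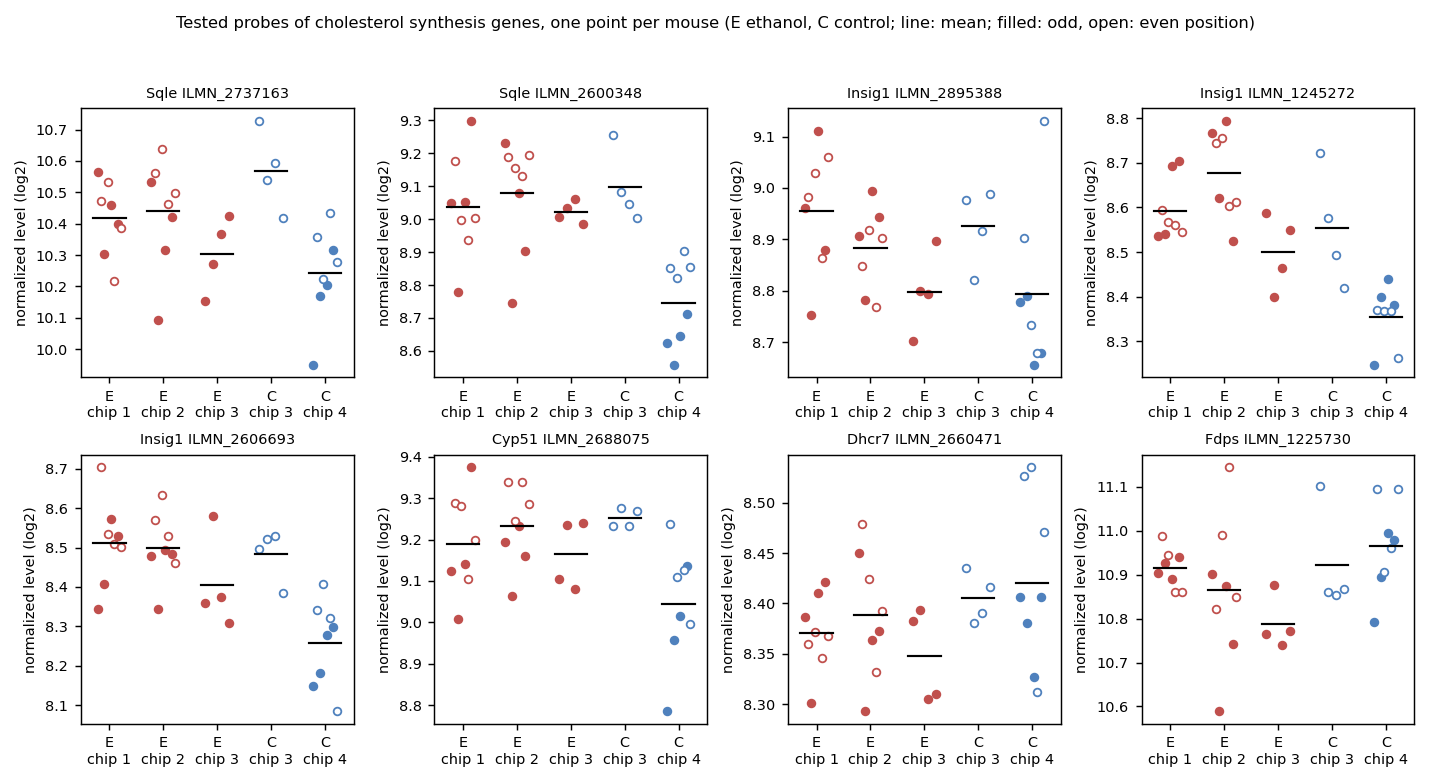
Normalized level (log2, vertical axis) of the 8 tested probes in each mouse, by group and chip (E, ethanol-treated; C, control), with the mean of each set as a line, odd chip positions filled and even positions open. For both Sqle probes, Cyp51 and Insig1 the controls of chip 4 sit lowest or level with the ethanol-treated mice of chip 3, and the controls of chip 3 sit above them (Sqle ILMN_2600348, 9.10 against 8.75).

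For Sqle ILMN_2737163 the controls of chip 3 averaged 10.57 ± 0.13 (SD, n = 4) and those of chip 4 averaged 10.24 ± 0.15 (n = 8). The ethanol-treated mice lay between them, at 10.42 ± 0.12 (n = 8), 10.44 ± 0.17 (n = 8) and 10.30 ± 0.12 (n = 4) on chips 1, 2 and 3. A comparison of the controls of chip 3 with those of chip 4, chosen after their values were seen, called 1 of 8 member probes at an FDR below 1% (4.42% of all probes) and 5 of 8 at an FDR below 10% (19.4%). The probe called at 1% was Sqle ILMN_2600348, higher on chip 3 by 0.35 (SE 0.07, adjusted p = 0.0043), and the other Sqle probe differed by 0.33 (SE 0.08, adjusted p = 0.011). These mice shared their treatment, but the controls of chip 3 all sat at even positions, and position was not in that fit. Against the 4 controls at even positions of chip 4 alone, the means of Sqle ILMN_2600348 were 9.10 and 8.86, and those of ILMN_2737163 were 10.57 and 10.32. The Sqle differences between chips of controls were larger in value than those between treatments over all arrays, a contrast that was not tested.

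Between chips, with the 16 ethanol-treated mice of chips 1 and 2 set against the 8 controls of chip 4, chip and treatment cannot be told apart. In that comparison 3 of 8 member probes were called at an FDR below 1% (11.7% of all probes), and 6 of 8 at an FDR below 10% (31.5%), all 6 higher with ethanol and all of Insig1, Sqle and Cyp51. Insig1 ILMN_1245272 was higher by 0.28 (SE 0.04, 1.21-fold, adjusted p = 8.9e-06), with no overlap between the groups, which held for 0.775% of all probes. Insig1 ILMN_2606693 was higher by 0.25 (adjusted p = 0.00015) and Sqle ILMN_2600348 by 0.31 (adjusted p = 0.00053). Sqle ILMN_2737163 was higher by 0.19 (adjusted p = 0.020), Cyp51 by 0.17 (adjusted p = 0.014) and Insig1 ILMN_2895388 by 0.13 (adjusted p = 0.073). Fdps (-0.08) and Dhcr7 (-0.04) did not pass.

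Within chip 3, where both groups were hybridized side by side, all 8 member probes lay below 0, while 49.7% of all probes lay above 0. The median was -0.08, beside -0.00047 over all probes. At an FDR below 1%, limma called 0 of 8 (2.59% of all probes), and 3 of 8 had an unadjusted p below 0.05 (26.4% of all probes). At an FDR below 10% it called 1 of 8 (16.6%), Sqle ILMN_2737163. Its 4 ethanol-treated mice had 10.15, 10.27, 10.37 and 10.43 and its 4 controls had 10.42, 10.54, 10.59 and 10.73, so that 1 mouse of each group overlapped. The difference was -0.27 (SE 0.07, adjusted p = 0.035). Fdps gave -0.13 (adjusted p = 0.18), Insig1 ILMN_2895388 gave -0.13 (adjusted p = 0.15), and the others lay between -0.09 and -0.05. None of the 8 had groups without overlap on this chip, as 15.2% of all probes did.

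**Figure D2:**
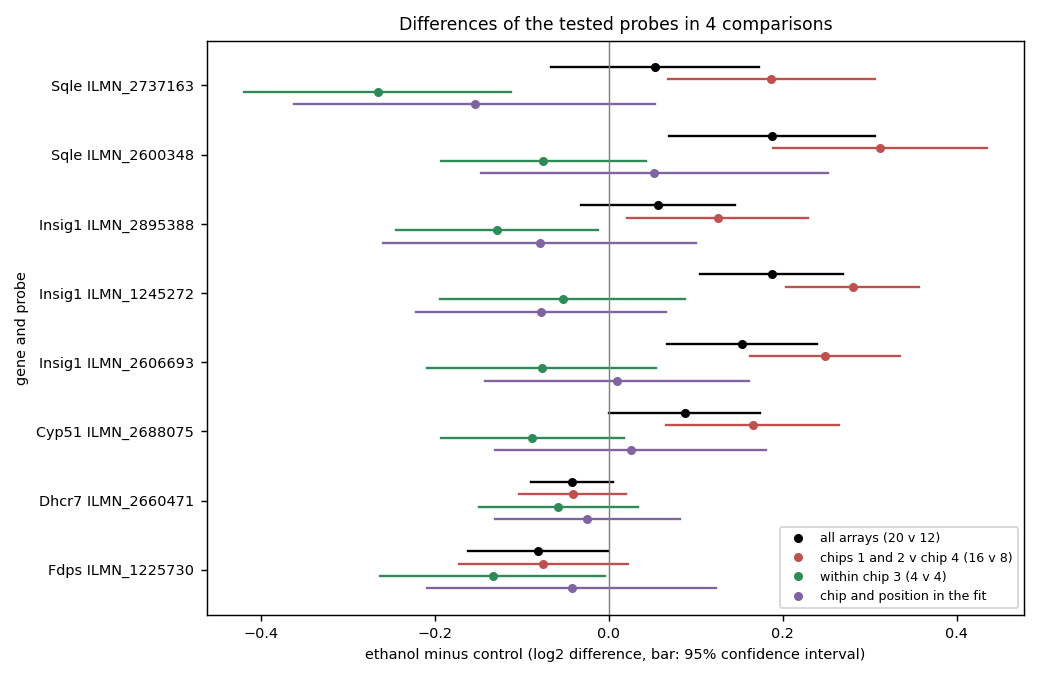
Difference between ethanol-treated mice and controls (log2, horizontal axis; bar, 95% confidence interval) of each tested probe over all arrays, between chips, within chip 3, and over all arrays with chip and position in the fit. The Insig1, Sqle and Cyp51 probes lie above 0 between chips (0.13 to 0.31) and below 0 within chip 3 (-0.27 to -0.05), while Fdps and Dhcr7 lie below 0 in both.

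The difference within chip 3 was tested directly against that between chips. It was smaller by 0.45 for Sqle ILMN_2737163 (SE 0.11, adjusted p = 0.0079), by 0.33 for Insig1 ILMN_1245272 (SE 0.07, adjusted p = 0.0036) and by 0.33 for Insig1 ILMN_2606693 (SE 0.08, adjusted p = 0.0093). These 3 of 8 were called at an FDR below 1% (3.55% of all probes) and 6 of 8 at an FDR below 10% (16.4%). Fdps (-0.06, adjusted p = 0.73) and Dhcr7 (-0.02, adjusted p = 0.88), whose differences had 1 sign throughout, were not called, with 95% intervals of -0.24 to 0.12 and -0.13 to 0.09. With odd or even position in the same fit, 2 of 8 passed an FDR of 10% (7.46% of all probes).

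Position on the chip could be read beside these values, because on chip 3 the ethanol-treated mice sat at positions A, C, E and G (odd) and the controls at B, D, F and H (even). On chips 1, 2 and 4, where treatment did not vary, 7 of 8 member probes were lower at odd positions, with a median of -0.09 beside -0.0015 over all probes. None was called at an FDR below 1% (3.94% of all probes), 5 of 8 had an unadjusted p below 0.05 (28.3%), and 1 of 8, Cyp51 at -0.11 (SE 0.04, adjusted p = 0.065), was called at an FDR below 10% (20.1%). With chip and position both in the fit, the 8 differences ran from -0.15 to 0.05, and 0 of 8 were called at an FDR below 1% (0.00982% of all probes) or 10% (0.0393%). In that fit 0 of 8 had an unadjusted p below 0.05, beside 9.34% of all probes. The 95% interval was -0.22 to 0.07 for Insig1 ILMN_1245272 and -0.15 to 0.25 for Sqle ILMN_2600348, which take in the differences seen over all arrays for the second and not for the first. Between chips 1 and 2, both ethanol, 0 of 8 were called at an FDR below 1% (0.0491% of all probes). There 0 of 8 had an unadjusted p below 0.05, beside 14.8% of all probes.

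Cell-type markers were read beside the chip 3 values, since oligodendrocytes and astrocytes make cholesterol and, in a tissue extract, fewer cells and less RNA per cell cannot be told apart. Of 10 tested oligodendrocyte genes, 7 were lower in the ethanol-treated mice of chip 3 on some probe at an FDR below 10% and 1, Mbp, was also higher on another probe, beside 10.1% of all genes lower and 9.66% higher. Their median difference there was -0.37, against -0.04 over all arrays. With chip and position in the fit it was -0.20, and 0 of the 10 were called at an FDR below 10% by limma. The mean centred level of these markers ran from -0.24 to -0.07 in the ethanol-treated mice of chip 3 and from -0.13 to 0.51 in its controls. Of the 11 oligodendrocyte genes in the table, Ermn was detected on 0 arrays. Of 8 tested astrocyte genes, 2 were higher on chip 3 at an FDR below 1%, beside 1.5% of all genes, and the median of the 8 was 0.08. These were the water channel gene Aqp4 (0.47, adjusted p = 0.0099) and the glutamate transporter gene Slc1a3 (0.37, adjusted p = 0.0055). For odd against even positions, where treatment did not vary, they were at 0.28 (adjusted p = 0.053) and 0.25 (adjusted p = 0.0054), and with chip and position in the fit they were at 0.18 and 0.12, not called. Of the excitatory neuron markers of the cortex, 5 of 7 were tested, Slc17a7 was detected on all 32 arrays and Neurod6 on 0. Over all arrays 3 of the 5 were lower at an FDR below 1%, beside 5.83% of all genes, and their median was -0.14. On chip 3 the vesicular glutamate transporter gene Slc17a7 was at -0.47 (adjusted p = 0.0018) and the transcription factor gene Tbr1 at -0.47 (adjusted p = 0.013), while the median of the 5 was -0.04. The mean centred level of these markers ran from -0.12 to -0.01 in the ethanol-treated mice of chip 3 and from 0.02 to 0.20 in its controls, without overlap. The astrocyte markers did not overlap there either (-0.0016 to 0.10 against -0.12 to -0.05). Nor did the mean centred level of the 5 members (-0.12 to -0.01 against 0.03 to 0.15). Striatum markers and the lists of sterol sensing and of cholesterol uptake also did not overlap, while the other lists did. A general neuron list, which also holds Slc17a7, had 4 tested genes, with medians of 0.09 over all arrays and -0.00027 on chip 3. On chip 3 its genes ran from -0.47 to 0.59. There 1 was higher and 1 lower at an FDR below 1%, beside 1.5% and 1.68% of all genes. Among olfactory bulb markers, 3 of 6 were detected widely enough to test, and 0 choroid plexus genes were. On chip 3 the 3 olfactory bulb genes lay above 0, from 0.09 to 0.49 with a median of 0.17. Of them, 1 passed an FDR of 1% and 2 passed 10%, beside 1.5% and 9.66% of all genes higher there. With chip and position in the fit 0 genes of the excitatory, general neuron and olfactory bulb lists were called at an FDR below 10%. Of all genes, 0.0505% were called higher and 0% lower. In that fit the excitatory genes ran from -0.35 to -0.07 with a median of -0.10. The olfactory bulb genes ran from -0.04 to 0.24 with a median of 0.07. The part of these markers in the member values was not tested.

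Of the rest of the synthesis pathway, 12 of 13 genes in the table were tested, and over all arrays 1 rose and 1 fell at an FDR below 1%, beside 3.96% and 5.83% of all genes. Nsdhl, which removes the carboxylated methyl groups of sterols, rose by 0.15 (SE 0.03, adjusted p = 0.0023), and Ebp, the sterol isomerase, fell by 0.18 (SE 0.04, adjusted p = 0.0021). The median of the 12 was -0.03, beside -0.0056 over all genes. Within chip 3, Nsdhl was at 0.07 and Ebp at -0.05. There 0 of the 12 were called by limma at an FDR below 10%, beside 9.66% of all genes higher and 10.1% lower.

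Of the genes that sense sterols or activate SREBP, 4 of 6 were tested. Over all arrays 0 were called at an FDR below 1%, beside 3.96% of all genes higher and 5.83% lower. Srebf2, which encodes the factor that drives the members, was at -0.06 (SE 0.04, adjusted p = 0.22) over all arrays and at -0.14 (adjusted p = 0.073) within chip 3. On chip 3 Mbtps1, the site-1 protease that cuts SREBP loose, fell by 0.28 (adjusted p = 0.0055), on its brightest probe, beside 1.68% of all genes lower there, while its other tested probes were at -0.10 (adjusted p = 0.15) and -0.13 (adjusted p = 0.12). The brightest probe was at -0.14 (adjusted p = 0.080) for odd against even positions where treatment did not vary, and with chip and position in the fit it was at -0.15 and 0 of the 4 genes were called.

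Of 11 tested genes of uptake, transport and turnover, 2 rose over all arrays at an FDR below 1% and 0 fell. Of all genes, 3.96% rose and 5.83% fell. Apoe, which encodes the main apolipoprotein of the brain, rose by 0.27 (SE 0.05, adjusted p = 0.00052), and stood at 0.22 (adjusted p = 0.024) within chip 3. Vldlr, a lipoprotein receptor, rose by 0.24 (SE 0.07, adjusted p = 0.0087) on ILMN_1218264, while its other tested probes were at 0.16 (adjusted p = 0.019) and 0.13 (adjusted p = 0.14). Of 8 tested genes of fatty acid synthesis and desaturation, which SREBPs also drive, 1 rose and 0 fell, beside the same shares of all genes. This was Fads1, a desaturase, by 0.14 (SE 0.03, adjusted p = 0.0026), at 0.14 (adjusted p = 0.099) within chip 3. Apoe, Vldlr and Fads1 lay above 0 both over all arrays and within chip 3, where the members lay below 0. Vldlr ILMN_1218264, at 0.23 on chip 3, was also higher at odd positions where treatment did not vary, by 0.25 (adjusted p = 0.011), and with chip and position in the fit it was at -0.02. In that fit Apoe was at 0.27 and Fads1 at 0.13, and neither was called. With chip as a fixed block, 0 of the 5 related genes named here passed an FDR of 1%, beside 0.114% of all genes higher and 0.0757% lower.

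**Figure D3:**
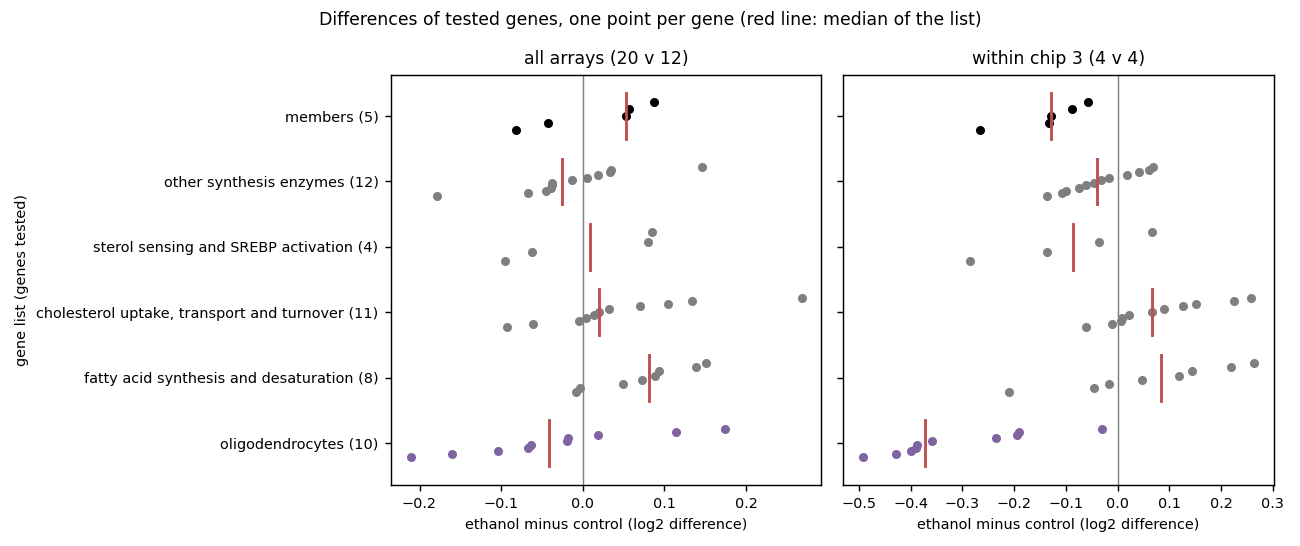
Difference between ethanol-treated mice and controls (log2, horizontal axes, which differ in range) of the brightest tested probe of each gene, over all arrays and within chip 3, for the 5 member genes, 4 related lists and oligodendrocyte markers, with list medians in red. The members spread to both sides of 0 over all arrays and all lie below 0 within chip 3, where the oligodendrocyte median is -0.37.

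Co-variation among the members was read across mice within each group, using the brightest tested probe of each gene, in 10 pairs of genes. In the 20 ethanol-treated mice all 10 Pearson correlations were above 0, from 0.19 to 0.55 with a median of 0.50. Over all pairs of the 7926 tested genes the median was -0.00052, and 2.39% of pairs reached 0.50 or more. Within chips the median was 0.46, which 4.26% of all pairs reached, and 9 of 10 were above 0, with Insig1 and Fdps at -0.04. Within chip and position it was 0.39, which 8.01% of all pairs reached, with 10 of 10 above 0. In the 12 controls 9 of 10 were above 0, from -0.06 to 0.86 with a median of 0.31, which 21.7% of all pairs reached. Within chips the control median was 0.39, which 14.5% of all pairs reached. Within chip and position it was 0.23, which 27.3% reached, with 7 of 10 above 0. Whether the groups differed was not tested. Arrays of a group share chips and normalization, so these medians are descriptions.

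**Figure D4:**
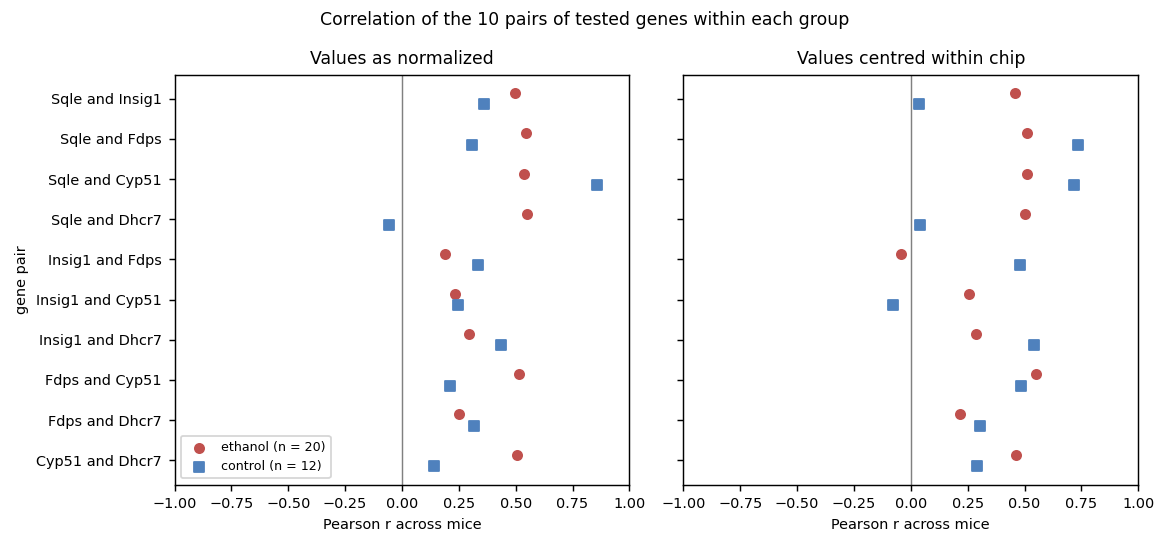
Pearson r across mice (horizontal axes) for each pair of the 5 tested genes in the 20 ethanol-treated mice (circles) and the 12 controls (squares), as normalized and centred within chip. The ethanol-treated pairs lie between 0.19 and 0.55 as normalized, and the control pairs spread from -0.06 to 0.86.

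Each pair was tested by permutation with 100000 resamples, two-sided, with Benjamini-Hochberg adjustment over 28 relations, which were the 20 pairs between genes and 8 pairs of probes of the same gene. Between genes, 1 of 20 passed at an adjusted p below 0.05, Sqle with Cyp51 in the 12 controls, and 6 ethanol pairs had an adjusted permutation p of Pearson's r between 0.058 and 0.073. There Pearson's r was 0.86 (permutation p adjusted to 0.0052) and Spearman's rho 0.80 (adjusted to 0.037). Without the 2 controls farthest from the median Sqle level r was 0.81, within chips it was 0.72, within chip and position it was 0.61, and on chip 4 alone it was 0.88. The permutations exchanged controls of chips 3 and 4, between which the levels of both genes differed in value.

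In the ethanol-treated mice the same pair had r = 0.54 and rho = 0.56 (permutation p adjusted to 0.058 and 0.076), and r fell to 0.40 without the 2 outermost mice. On chips 1 and 2 it was 0.40 and 0.70. The other ethanol pairs with Sqle were of like size, 0.55 with Dhcr7, 0.55 with Fdps and 0.50 with Insig1 (permutation p adjusted to 0.058, 0.058 and 0.073), with rho of 0.54, 0.50 and 0.48. Without the 2 mice outermost in Sqle these were 0.54, 0.26 and 0.28, so the last pair of relations leaned on those mice.

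**Figure D5:**
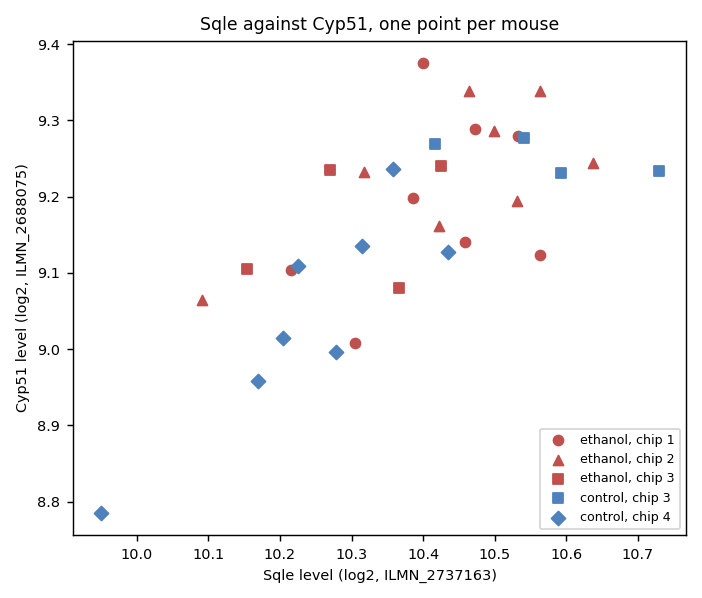
Level of Sqle (ILMN_2737163, horizontal) against Cyp51 (ILMN_2688075, vertical), both log2, with a point for each mouse, coloured by group and shaped by chip. The controls of chip 4 run from the lower left (Sqle 9.95, Cyp51 8.79) upward, and the controls of chip 3 lie at the upper right (Sqle 10.42 to 10.73).

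A few mice stood low for several members together. Ethanol-treated mouse A29 of chip 2 was the lowest of its group on 4 of 8 probes, both Sqle probes, Fdps and Dhcr7, and control C57 of chip 4 was the lowest of its group on 4, Sqle ILMN_2737163, Insig1 ILMN_1245272, Cyp51 and Fdps. The mean centred level of the olfactory bulb markers was 0.50 in A29, the highest of all mice, and 0.10 in C57. The part of these markers in the low values was not tested.

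Probes of the same gene did not always vary together. The Sqle probes had r = 0.62 in ethanol-treated mice (permutation p adjusted to 0.029; rho 0.55, adjusted to 0.076) and r = 0.91 in controls (permutation p adjusted to 0.00084; rho 0.94, adjusted to 0.0011). Among the Insig1 probes, ILMN_1245272 and ILMN_2606693 had r = 0.79 in controls (permutation p adjusted to 0.015; rho 0.69, adjusted to 0.076) and r = 0.50 within chips. The brightest Insig1 probe had r = 0.11 and -0.01 with them in controls, and -0.37 and -0.59 within chips. Without the 2 controls outermost on the other probe of each pair, the values over all controls were -0.21 and 0.43. Control C66, with the fewest detected probes (9480), was left out for 0.43 and kept for -0.21. Its level of the brightest probe was the highest of all mice, 9.13, from the lowest signal, 268. Its level of ILMN_2606693 was the lowest, 8.08. In the ethanol-treated mice the same pairs had r = 0.26 and 0.39, and 0.21 and 0.25 within chips.

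The genes whose pattern was most like the members were sought among the 7926 tested genes, over the 32 arrays with each probe centred within chip and group, by Pearson's r with the mean of the 5 members. The members themselves had r from 0.56 for Insig1 to 0.78 for Sqle, being part of that mean. The 10 other genes with the highest r were Madd (0.82), Pld3 (0.79), Plekha6 (0.77), Tspyl1 (0.75), Tfg (0.75), Porcn (0.75), Ppp3r1 (0.73), 6430411K18Rik (0.72), Eif3s8 (0.72) and Cyp46a1 (0.72). Of these, Cyp46a1 belongs to the cholesterol lists, as the enzyme that hydroxylates cholesterol for export from the brain, and over all arrays it was at 0.03 (adjusted p = 0.66). Of the synthesis enzymes that are no members, Mvd lay further down, at 0.53 (rank 171), and Ebp at 0.46 (rank 358).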

How the data were processed

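FCtx RNA of 32 mice was hybridized to 4 chips of 8 arrays, and groups came from the labels. The intensities deposited by the authors are mean bead signals per probe and array, linear and not normalized. The deposited detection p-values compare each probe with negative control beads, and the table adds bead counts and bead standard errors. The background step and the build of the probe positions are not given in the sources used here. The Methods name lumi for variance stabilization and quantile normalization, and limma. Here a transform after lumi's was computed from the bead errors, then quantile normalization and moderated tests in limma 3.58.1 (R 4.3.3, data.table, version 1.17.8), without covariates, and Benjamini-Hochberg adjustment over all 10187 probes tested. Correlations used Python 3.11.15 with numpy 2.4.6, scipy 1.17.1 and pandas 2.3.3, and figures matplotlib 3.10.9. A gene was counted as called if any of its probes was, and list medians and correlations used its brightest tested probe.

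Members, gene lists and tests were chosen with earlier results of these data known. All member probes were named, with genes of the related lists called at an FDR below 1%, Srebf2, and the 10 most alike genes; other list genes (Mbtps1, marker genes, Mvd) were named after their values were seen. Some genes the rule names are not reported here. Across arrays, the median signal ran from 166 to 203 with ethanol and from 146 to 187 in controls, and 10644 to 11544 and 9480 to 11413 probes were detected, lowest in control C66. The number of arrays limits the precision. Alternatives changed the transform, background, scaling, probe filter, chip, position, array weights and single arrays. The fits and permutation test were tested on simulated data.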

Additional observations from a re-analysis of the deposited data

Results flagged for a closer look

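The direct test of the difference within chip 3 against that between chips passed an FDR of 10% for 6 of 8 member probes by limma, beside 16.4% of all probes. The values were -0.45 for Sqle ILMN_2737163, -0.39 for Sqle ILMN_2600348 (adjusted p = 0.020), -0.33 for Insig1 ILMN_1245272, -0.33 for Insig1 ILMN_2606693, -0.25 for Insig1 ILMN_2895388 (adjusted p = 0.068) and -0.25 for Cyp51 ILMN_2688075 (adjusted p = 0.056), on the log2 scale. With odd or even position in the fit, Insig1 ILMN_1245272 was at -0.36 (adjusted p = 0.011) and Sqle ILMN_2737163 at -0.34 (adjusted p = 0.088), and the other 6 did not pass 10%.

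For Fdps, control mouse C52 of chip 3 had 11.10, above the other 3 controls of that chip, whose nearest value was 10.87. It was the single mouse standing apart among 40 sets of a probe, group and chip examined. Chance gives about 1 in 20 sets, so 1 in 40 is no more than chance gives.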

How the results depend on the processing

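The count of member probes called at an FDR below 1% over all arrays, 1 of 8, became 2 with log2 of the signal or normexp background, 3 with odd or even position, and 0 with median scaling, with probes detected on all arrays, with chip as a fixed or random block, with chip and position together, or without the controls of chip 4 (an alternative chosen after the data were seen). Of all probes, 8.16% were called at an FDR below 1% in the main fit. With chip as a fixed block this was 0.147%, and with chip and position together 0.00982%. The share in the other settings is not given here. The related genes called, 5, became 3 with normexp and 0 with median scaling, either chip block, chip with position, or without the controls of chip 4. Of all genes, 3.96% were called higher and 5.83% lower in the main fit, and 0.114% and 0.0757% with chip as a fixed block. For chip 3 against between chips, 3 called probes became 1 with normexp and 0 with median scaling or with position. Of all probes, 3.55% were called there in the main fit and 0.785% with position. The median correlation in controls became 0.62 with median scaling. With chip as a fixed block, differences turned negative for Cyp51 (-0.0876), Insig1 ILMN_2895388 (-0.13), ILMN_1245272 (-0.0529) and ILMN_2606693 (-0.0772), and Sqle ILMN_2600348 (-0.0751) and ILMN_2737163 (-0.27); with chip as a random block, Sqle ILMN_2737163 (-0.0167); with chip and position, Insig1 ILMN_2895388 (-0.0794), ILMN_1245272 (-0.0779) and Sqle ILMN_2737163 (-0.15); without the controls of chip 4, Cyp51 (-0.0511), Insig1 ILMN_2895388 (-0.0314), and Sqle ILMN_2600348 (-0.0462) and ILMN_2737163 (-0.17). A fixed chip block leaves the 8 arrays of chip 3 to set the difference. Otherwise the cause was not tested. Leaving out each array of chip 3 kept 0 calls there, with 1 to 2 at an FDR below 10%, and Insig1 ILMN_1245272 ran from -0.10 to 0.0037, turning without control C52. In all, 176 of the other values for single probes kept direction and side of the threshold, 4 passed it and 3 lost it. Normexp widened the differences of dim probes, to 0.70 for Insig1 ILMN_2606693. Probes near the background limit these values. No paired analysis was possible because the groups share no mouse numbers.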
